A study of Homo sapiens with 6 samples.

Results

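The genes described here are 8 that encode surface receptors of platelets: ITGA2B, ITGB3, GP1BA, GP5, F2R, ADRA2A, CLEC1B and PECAM1. They were taken by name, and all 8 were found among the 14821 genes of the table. They were chosen by function and by their levels in these same ERG and vector libraries, which were already known, so the differences between the groups are given as a description and support nothing by themselves. The cells are F36P, an established human erythroleukaemia cell line. In the ERG group (3 libraries) they had been transduced with the retroviral plasmid MSCV-PIG-AM-ERG, which expresses ERG, a DNA-binding protein of the ETS class. In the vector group (3 libraries, labelled as wild type) they carried the plasmid MSCV-PIG without ERG. Puromycin at 1 µg/ml had been applied to both groups during 4 days, so every library comes from a transduced and selected population of 1 cell line. The labels call the replicates biological without naming the cultures, and p-values measure only the spread between these samples.

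Platelets are shed by megakaryocytes, which share a progenitor with red cells, and their receptors appear as a megakaryocyte matures. ITGA2B and ITGB3 encode the alpha and beta chains of the integrin alphaIIb-beta3, which binds fibrinogen and links platelets to each other. GP1BA and GP5 encode chains of the complex that catches von Willebrand factor on a damaged vessel wall. F2R encodes PAR1, the receptor that thrombin cleaves, and ADRA2A the alpha-2A adrenergic receptor, through which adrenaline acts on platelets. CLEC1B encodes CLEC-2, the receptor of podoplanin, and PECAM1 an adhesion and inhibitory receptor of platelets, leukocytes and endothelium. ETS and GATA factors are known to bind the control regions of many megakaryocyte genes.

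RefSeq gave the 300 bases around the annotated start (250 before, 50 after) of 4 of the 8 genes, and they are shown because these genes were all higher in mean level with ERG and because ERG is an ETS factor. Capitals mark matches on either strand to 5 motifs. AGGAAG and the related motif CGGAAG are cores of ETS sites. AGATAA and the related motif TGATAA are cores of GATA sites. TGTGGT is the core of RUNX sites. No match overlapped another. The build is GRCh38.p14, and each sequence runs 5′ to 3′ on the strand of its gene.
ITGA2B, chr17:44389600-44389899, minus strand: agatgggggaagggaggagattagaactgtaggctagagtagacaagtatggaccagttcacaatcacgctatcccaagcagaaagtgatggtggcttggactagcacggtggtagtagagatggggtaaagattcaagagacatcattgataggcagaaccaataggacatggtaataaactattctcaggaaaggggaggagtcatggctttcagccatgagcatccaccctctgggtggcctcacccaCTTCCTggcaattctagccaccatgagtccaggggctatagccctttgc
GP5, chr3:194399217-194399516, minus strand: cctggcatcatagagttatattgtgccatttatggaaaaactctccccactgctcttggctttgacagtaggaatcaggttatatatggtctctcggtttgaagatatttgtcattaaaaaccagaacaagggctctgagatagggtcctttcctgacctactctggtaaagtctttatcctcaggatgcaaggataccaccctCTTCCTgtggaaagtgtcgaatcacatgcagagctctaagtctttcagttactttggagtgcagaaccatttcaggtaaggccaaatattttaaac
CLEC1B, chr12:9999072-9999371, minus strand: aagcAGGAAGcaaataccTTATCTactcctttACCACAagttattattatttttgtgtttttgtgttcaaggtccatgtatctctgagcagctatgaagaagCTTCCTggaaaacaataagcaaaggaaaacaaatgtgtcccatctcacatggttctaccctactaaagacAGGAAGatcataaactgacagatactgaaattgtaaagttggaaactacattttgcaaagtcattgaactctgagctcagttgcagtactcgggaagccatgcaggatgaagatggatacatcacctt
ADRA2A, chr10:111076779-111077078, plus strand: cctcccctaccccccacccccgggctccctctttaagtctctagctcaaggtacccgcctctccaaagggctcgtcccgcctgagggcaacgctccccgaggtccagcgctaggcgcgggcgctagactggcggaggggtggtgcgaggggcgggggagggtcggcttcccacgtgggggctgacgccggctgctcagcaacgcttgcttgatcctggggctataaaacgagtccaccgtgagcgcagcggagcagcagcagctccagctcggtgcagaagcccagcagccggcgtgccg
The window of CLEC1B held AGGAAG at 3 places, first bases at -246, -148 and -78 from the start, with 1 AGATAA at -232 and 1 TGTGGT at -218. Those of GP5 and ITGA2B held AGGAAG once each, at -46 and at 2 (counted from 1 at the annotated start). The window of ADRA2A held none of the 5 motifs. Among all 35116 RefSeq windows 33.6% held AGGAAG, 19.5% CGGAAG and 46.9% at least 1 of these ETS cores. AGATAA was held by 10.3%, TGATAA by 7.53% and TGTGGT by 13.1%. AGGAAG at 3 or more places was held by 1.49%, a cut-off equal to the count in the CLEC1B window. A match is a stretch of letters and not a measured binding site. The starts differ between annotations: the RefSeq start lies 134 bases upstream of the GENCODE release 29 gene for ADRA2A, 144 bases for ITGA2B and 912 bases for GP5. For CLEC1B the same count is -14303, that is, its RefSeq start lies far downstream, inside the GENCODE gene, and the window with its matches is not at that gene's outer start.

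Library totals ranged from 10257141 to 14803031 counts. ERG itself measured 97.4, 103 and 104 CPM (a gene's reads scaled to a common library total, after TMM normalisation) with the ERG virus, against 28.1, 14.6 and 22.4 CPM with the vector alone. Reads of the virus and of the cells' own gene were not told apart. Across genes the libraries also fell into 2 sets that cut across the groups: ERG replicates 1 and 2 with vector replicate 1 (set A), and ERG replicate 3 with vector replicates 2 and 3 (set B). ERG replicates 1 and 2 correlated at r = 0.993 over the tested genes, while all other pairs lay between 0.937 and 0.978. The difference between ERG replicates 1 and 2 exceeded sampling noise (chi-square of 2.2 per degree of freedom over 14575 genes). All other pairs differed far more, at 21.6 to 86.9. A value above sampling noise does not show that ERG replicates 1 and 2 came from separate cultures, which was not tested. They were kept as 2 samples because the labels list them so. Erythroid RNA was present throughout: all 12 erythroid markers looked for were above 1 CPM in every library, HBG2 (fetal globin) at 1354 CPM or more. That 1 CPM level alone does not tell a cell type, since all 6 mast cell markers in the table also reached it in every ERG library.

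ERG libraries had more RNA of every one of the 8 receptor genes than vector libraries in group means, from 1.96-fold (ITGA2B) to 14.7-fold (GP5), and more again for CLEC1B, which had 1 read in all vector libraries together. For 7 of the 8 the ERG libraries all lay above the vector libraries, a pattern shown by 12.3% of the 14203 tested genes. The same 7 passed an edgeR adjusted p of 0.05 as higher in the fit across all genes, where 1.47% of genes did so, with adjusted p-values between 0.0124 and 0.029. They passed as well by DESeq2, which called 4.2% of genes higher, but 0 of the 8 passed by edgeR with ERG replicates 1 and 2 summed, or without any 1 of 4 libraries that are named with the limits of these calls (7 at an unadjusted p under 0.05 each time). Only ITGA2B overlapped between the groups and did not pass (edgeR adjusted p = 0.209). The median log2 fold change was 2.90 over the 8 genes and -0.01 over all tested genes. These counts describe genes chosen with the values known. GP5 and CLEC1B reached 1 CPM in 0 vector libraries and entered the test only through the ERG libraries, so a difference was built into their entry.

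**Figure D1:**
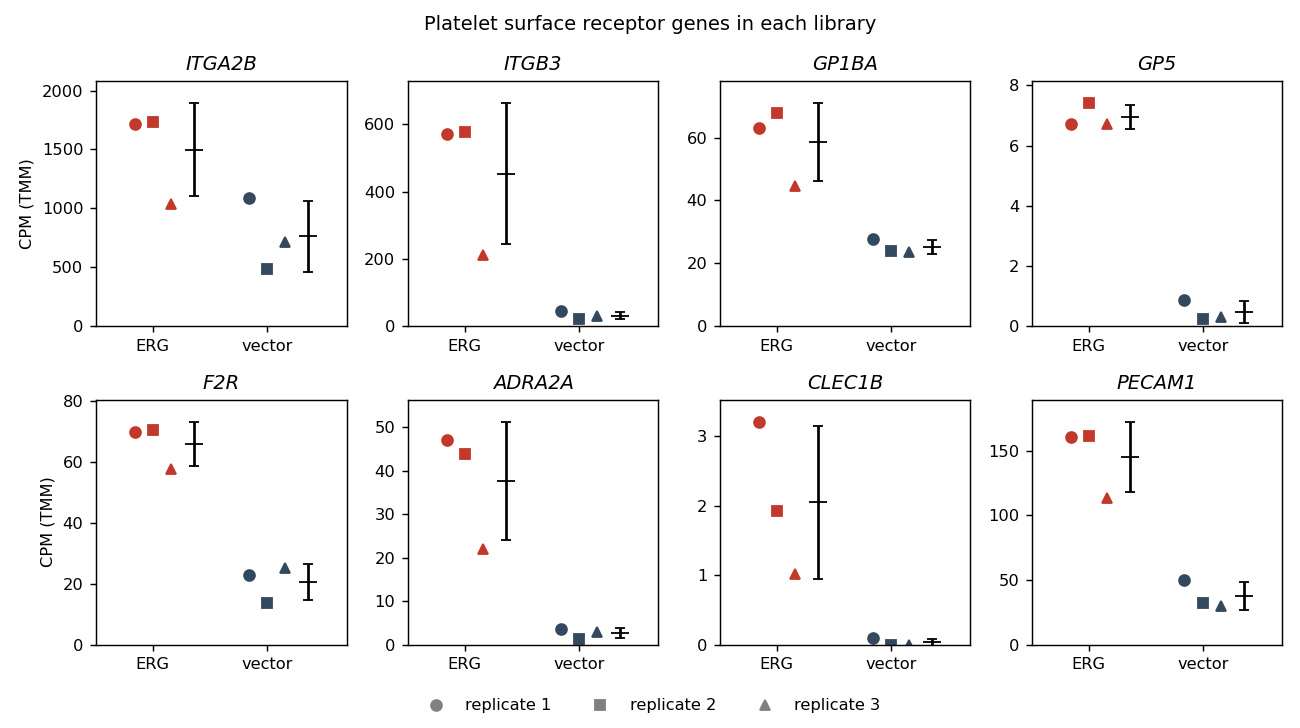
Levels of the 8 receptor genes in CPM after TMM scaling (y axis, linear, a scale for each gene) in the ERG libraries (left, red) and vector libraries (right, dark blue). Symbols are replicates, and the bar beside them is the mean with 1 SD (n = 3). ERG replicate 3 (triangle) was the lowest ERG library for every gene, and only for ITGA2B did it lie below a vector library (1039 against 1083 CPM in vector replicate 1).

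Of the fibrinogen receptor chains, the beta chain differed by a far larger fold than the alpha chain. ITGB3, the beta chain (chromosome 17, 47253846 to 47311816, hg38), was at 570, 578 and 211 CPM with ERG (replicates 1, 2 and 3, the order used throughout) and at 43.2, 21.6 and 28.6 CPM with vector. All ERG libraries lay far above all vector libraries, though ERG replicate 3 held only 36.7% of the mean of the other ERG libraries. The fold change was 14.6 (log2 3.86, SE 0.46, 95% interval 2.80 to 4.93), and 22 genes of 14203 had a larger one. ITGA2B, the alpha chain (chromosome 17, 44372180 to 44389505), stood at 1717, 1732 and 1039 CPM with ERG and at 1083, 487 and 715 CPM with vector. It was thus abundant without added ERG, and the groups overlapped by the narrow margin between ERG replicate 3 and vector replicate 1. The log2 fold change was 0.97 (SE 0.33, 95% interval 0.20 to 1.75). With a term for the library sets ITGA2B passed (log2 0.73, edgeR adjusted p = 0.0107), in a fit that called 7.2% of all genes higher. It also passed with that term and ERG replicates 1 and 2 summed (edgeR adjusted p = 0.036). The sets were known from earlier results of these same libraries, and p-values with the term do not allow for that. Over the other alternatives the adjusted p of ITGA2B ran from 0.0574 (DESeq2) to 0.618 (edgeR without ERG replicate 2).

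Because a working receptor needs 1 chain of each kind, the ratio of their RNAs was also computed, per length of exon. With ERG, ITGB3 RNA amounted to 0.252, 0.254 and 0.154 of ITGA2B RNA in replicates 1, 2 and 3. With vector, the share was 0.0303, 0.0337 and 0.0302 in the replicates of those numbers. The vector ratios were nearly equal although ITGA2B itself ranged from 487 to 1083 CPM among those libraries. In every library ITGB3 remained the scarcer chain: ITGA2B RNA was between 3.94 and 6.50 times as abundant per length in ERG libraries and between 29.7 and 33.1 times in vector libraries. The exonic lengths used were 4394 bases for ITGB3 and 3333 for ITGA2B (GENCODE release 29, basic transcripts). The annotation also places an unnamed protein-coding locus over 2266 exonic bases of ITGB3 on the same strand, so its count depends on how the counting shared such reads.

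**Figure D2:**
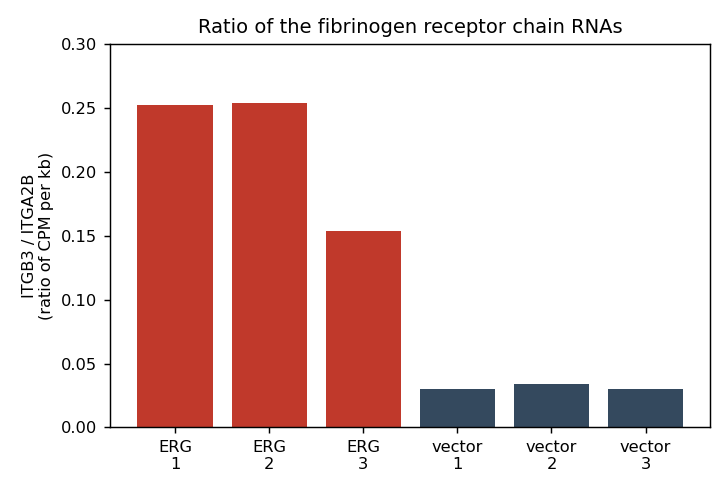
Ratio of ITGB3 to ITGA2B RNA (y axis, CPM per kb of exon, linear from 0) in each ERG library (left, red) and vector library (right, dark blue). The vector libraries sit between 0.0302 and 0.0337 and the ERG libraries between 0.154 and 0.254.

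The other integrin chains were looked at beside these 2. Of 24 further alpha and beta chain genes 14 were tested, with a median log2 fold change of 0.32. By edgeR 0 passed in either direction (5 at an unadjusted p under 0.05, as were 2260 of all 14203 tested genes). By DESeq2 2 passed, both higher. The log2 fold change was positive for 8 and negative for 6. ITGAM, named after its values were seen, was at 245 CPM with ERG and 78.4 CPM with vector on average (3.12-fold, edgeR adjusted p = 0.0865). ITGAX (2.71-fold), ITGA10 (2.27-fold) and ITGA9 (2.24-fold) also had larger folds than ITGA2B. In these genes all ERG libraries lay above the vector libraries, as in 12.3% of all tested genes. ITGAV, the other alpha chain that pairs with ITGB3 (vitronectin receptor), averaged 29.4 ± 6.86 CPM with ERG, against 22.3 ± 5.26 CPM with vector (SD, n = 3 each), and the groups overlapped (log2 0.40, 95% interval -0.17 to 0.97). The most abundant of the list were ITGB1, at 376 ± 67.9 CPM with ERG and 421 ± 101 CPM with vector, and ITGA4, at 262 ± 38.7 CPM with ERG and 276 ± 54.9 CPM with vector, chains of collagen, laminin and fibronectin receptors. Neither difference passed the test (log2 -0.16 and -0.08), and the sign of each turned under some settings.

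Of the complex that binds von Willebrand factor, GP1BA encodes the chain that carries the binding site (chromosome 17, 4932297 to 4935030). It was at 63.2, 68.0 and 44.5 CPM in ERG libraries and at 27.6, 24.0 and 23.6 CPM in vector libraries. The vector libraries lay close together, and all ERG libraries were above them, by 2.34-fold (log2 1.22, SE 0.19). GP5, the chain that thrombin can cleave from the platelet surface (chromosome 3, 194394821 to 194398354), had 86, 108 and 99 reads in ERG libraries and 10, 3 and 3 in vector libraries. In CPM these were 6.73, 7.4 and 6.72 with ERG and 0.88, 0.228 and 0.294 with vector. Its ERG libraries differed less among themselves than those of any other of the 8 genes, with ERG replicate 3 at 95.1% of the other two. The log2 fold change was 3.88 (SE 0.48), and 4.70 without vector replicate 1, which held 10 of the 16 vector reads. GP9, a further chain of the complex, was at 5.63, 4.94 and 0.951 CPM with ERG and at 4.31, 3.50 and 1.96 CPM with vector. Its groups overlapped, with ERG replicate 3 lowest of all (log2 0.23, 95% interval -1.22 to 1.67, edgeR adjusted p = 0.879), and its sign turned with the set term (log2 -0.45). GP1BB was looked for but not found by that name among the genes of the table, so it was not analysed. GP1BA shares 97 exonic bases with CHRNE on the opposite strand, and CHRNE was at 2.21 to 10.7 CPM over the 6 libraries.

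Among the receptors coupled to G proteins, F2R (chromosome 5, 76716043 to 76735781) was at 69.6, 70.3 and 57.5 CPM in ERG libraries and at 22.7, 13.7 and 24.9 CPM in vector libraries. The groups were well apart, the lowest ERG library being above the highest vector library by more than the whole vector range (3.22-fold, log2 1.69, SE 0.24). F2RL3, which encodes PAR4, the other thrombin receptor of human platelets, was at 50.6, 53.6 and 51.7 CPM with ERG and at 58.3, 58.5 and 60.7 CPM with vector, so all its ERG libraries lay slightly below the vector libraries. That difference did not pass (log2 -0.19, 95% interval -0.45 to 0.08, edgeR adjusted p = 0.468). ADRA2A (chromosome 10, 111077163 to 111080907) was at 46.9, 43.9 and 21.9 CPM with ERG and at 3.61, 1.29 and 2.94 CPM with vector. The groups lay far apart, by a fold change near that of ITGB3 (14.5-fold, log2 3.86, SE 0.44), with ERG replicate 3 at 48.3% of the other ERG libraries. In the list of relatives of the thrombin, adrenergic and CLEC receptors 5 of 19 genes were tested and 0 passed by edgeR or DESeq2 (2 at an unadjusted edgeR p under 0.05), F2RL3 and CLEC2B being the most abundant. CLEC2B, a C-type lectin, was at 11.6 ± 0.864 CPM with ERG and 7.73 ± 1.73 CPM with vector (log2 0.58, edgeR adjusted p = 0.27).

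CLEC1B (chromosome 12, 9985642 to 10013424) had the fewest reads of the 8, namely 41, 28 and 15 with ERG and 1, 0 and 0 with vector. The pooled ratio of 84 to 1 reads, scaled for library size, was 69.3, with an exact binomial 95% interval of 12.1 to 2768 that covers counting error only. Even in the highest ERG library the gene reached only 3.21 CPM. The fitted log2 fold change moved between 5.19 and 7.74 as single libraries were left out, and its size rests on that 1 vector read. PECAM1 (chromosome 17, 64319415 to 64413776) was far more abundant, at 161, 161 and 114 CPM with ERG and 50.2, 32.2 and 30.04 CPM with vector. Its lowest ERG library was more than 2 times its highest vector library (fold change 3.87, log2 1.95, SE 0.24).

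**Figure D3:**
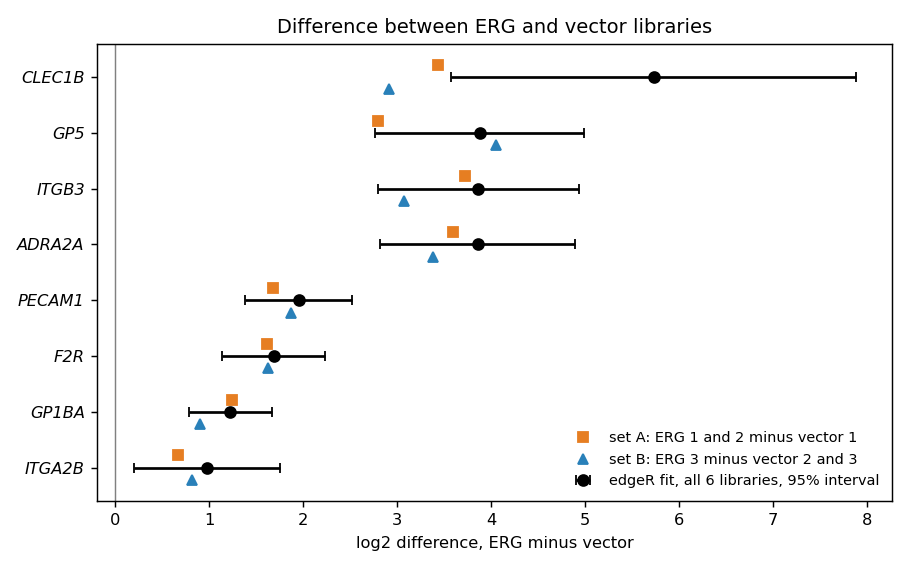
Log2 difference between ERG and vector libraries (x axis) for each receptor gene (y axis). Black circles are the edgeR fit over all 6 libraries with 95% intervals, orange squares the difference within set A and blue triangles that within set B, both in log2 CPM with a prior count of 2, which draws rare genes such as CLEC1B towards 0. All 8 genes are above 0 in both sets, from 0.67 (ITGA2B, set A) to 4.05 (GP5, set B).

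Scaled by length of exon, the levels kept a similar order in both groups. With ERG, ITGA2B led at 449 ± 119 CPM per kb, followed by ITGB3 at 103 ± 47.9 CPM per kb, and these did not overlap each other or the next gene. GP1BA (23.4 ± 4.97), PECAM1 (21.3 ± 3.96) and F2R (16.2 ± 1.79 CPM per kb) followed in that order, each overlapping its neighbour. ADRA2A (5.86 to 12.5 CPM per kb), GP5 (1.97 ± 0.115) and CLEC1B (0.651 ± 0.35 CPM per kb) came last, without overlap. With vector, ITGA2B again led, at 229 ± 90.3 CPM per kb. GP1BA (9.43 to 11.1 CPM per kb) then stood above ITGB3 (7.09 ± 2.51 CPM per kb), with overlap of their ranges, and PECAM1 (5.49 ± 1.62) and F2R (5.03 ± 1.47 CPM per kb) overlapped in turn. ADRA2A (0.698 ± 0.318), GP5 (0.132 ± 0.102) and CLEC1B (0.0093 ± 0.0161 CPM per kb) were again lowest (SD, n = 3 each). ITGB3 and GP1BA were the pair that changed places.

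**Figure D4:**
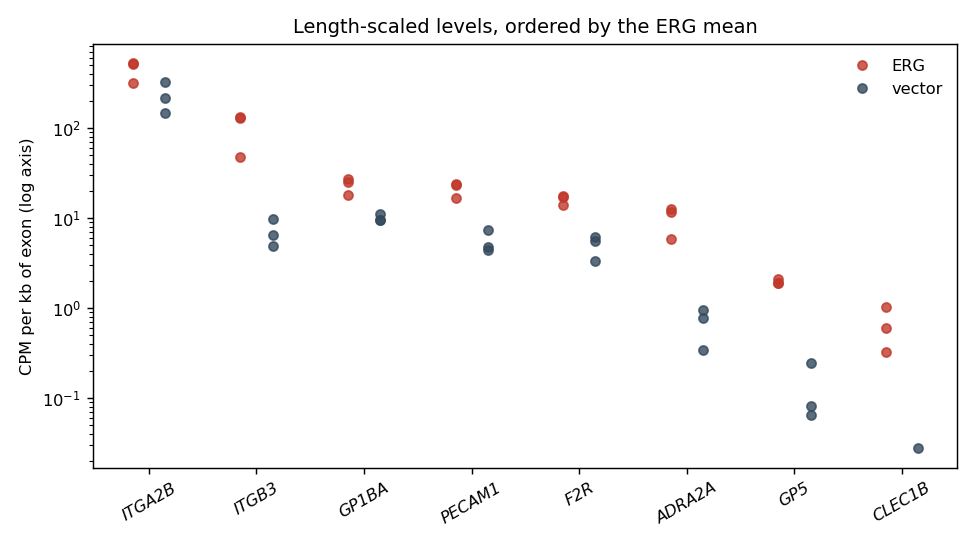
CPM per kb of exon (y axis, log scale) of the 8 genes, ordered by their mean with ERG. Points are single libraries, ERG in red on the left and vector in dark blue on the right of each gene. The vector libraries with 0 reads of CLEC1B cannot be drawn on this axis, and ITGB3 is second with ERG (103 CPM per kb on average) but below GP1BA with vector (7.09).

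Within the groups the 8 genes also moved with the library sets. ERG replicate 3 was lower than ERG replicates 1 and 2 for all 8 genes, from 36.7% of their mean for ITGB3 to 95.1% for GP5, where the margin to replicate 1 was only 6.72 against 6.73 CPM. Vector replicate 1 was higher than vector replicates 2 and 3 for 7 of the 8, F2R being the exception, by 1.8-fold for ITGA2B and 1.72-fold for ITGB3. For CLEC1B this rests on 1 read against 0 and 0. Within set A the log2 differences of ITGB3, ADRA2A, PECAM1, F2R, GP1BA and ITGA2B were 3.73, 3.60, 1.68, 1.62, 1.24 and 0.67. Within set B the same genes stood at 3.08, 3.38, 1.87, 1.63, 0.90 and 0.82. GP5 stood at 2.80 in set A and 4.05 in set B, and CLEC1B at 3.44 and 2.91, both with few vector reads. With a single vector library in set A and a single ERG library in set B, these values have no error of their own, and a shared sign follows largely from the choice of genes. Over the 6 libraries the log2 CPM of ITGB3 correlated with those of the other 6 genes besides ITGA2B at r = 0.967 to 0.995, and with ITGA2B at r = 0.908. The points share the group difference, which alone gives high values.

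The genes closest to ITGB3 over the 6 libraries, by Pearson's r of log2 CPM among tested genes with a mean of at least 5 CPM, were GOLGA8O, EXOC3L2 (both r = 0.9995), MMRN1 (0.9988), NLRC3 (0.9977) and MYO3B (0.9973). MMRN1 encodes multimerin, a platelet granule protein, and was at 119 CPM on average with ERG and 15.9 CPM with vector. GOLGA8O belongs to a family of near-identical copies, and its count is uncertain. Those closest to ITGA2B were IL1RAP (0.9992), ABHD4 (0.9988), IGL (0.9972), EIF3J-DT (0.997) and DYNLT5 (0.9967). All 5 of the ITGB3 group passed as higher with ERG and 0 of the 5 of the ITGA2B group did, as each set repeats the pattern it was matched to. With only 6 libraries and so many genes, high values arise readily, and they are given as a description.

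Further receptors of platelets, taken as a list, give a wider view. Like the lists above and below, it was chosen with earlier results of these data known, so its counts are a description. Of 39 further surface receptor genes 28 were tested, of which 4 (14.3%, against 1.47% of all tested genes) rose and 0 fell (against 0.732%). The median log2 fold change was 0.40, with 21 of 28 positive and 7 negative. An unadjusted edgeR p under 0.05 was found for 10, and for 2260 of all 14203 tested genes. CD36 and CD151, named after their values were seen, had all ERG libraries below the vector libraries (log2 -0.59 and -0.55, edgeR adjusted p = 0.233 and 0.102). SELP, the P-selectin of platelet granules and endothelium, was at 12.7, 12.1 and 2.38 CPM with ERG and 0.352, 0 and 0.0978 CPM with vector (log2 5.87, SE 0.98). It reached 1 CPM in 0 vector libraries and, like GP5 and CLEC1B, entered the test only through the ERG libraries, and its call was lost with limma-voom (adjusted p = 0.0851). CD109, a membrane protein that carries a platelet alloantigen, rose 5.07-fold (117 ± 21.3 CPM with ERG against 23.1 ± 11.2 CPM with vector, SD, n = 3 each). FCER1G, the signalling chain of the collagen receptor GPVI and of the IgE receptor, rose 2.88-fold (48.9 ± 8.52 CPM with ERG against 17.01 ± 4.71 CPM with vector). GP6, which encodes GPVI itself, was at 62.4, 65.1 and 27.6 CPM with ERG and 16.3, 10.2 and 17.1 CPM with vector, without overlap, at the edge of the threshold (log2 1.83, SE 0.36, edgeR adjusted p = 0.0506). It passed by edgeR with the set term, whose sets were known from these same data (0.00367), and without ERG replicate 3 (0.0159). Its adjusted p lay within a range of 7.74e-05 to 0.211 over its alternatives. P2RY12 was likewise not found by that name among the genes of the table and was not analysed.

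Of 40 genes that carry signals from these receptors or activate the integrin, 39 were tested. By edgeR 3 rose (7.69%, against 1.47% of all tested genes) and 0 fell, with a median log2 fold change of 0.32. The log2 fold change was positive for 31 and negative for 8. DESeq2 called 11 higher and 1 lower (596 and 410 of all 14203 tested genes). SYK, a kinase named after its values were seen, averaged 5.14 CPM with ERG and 10.4 CPM with vector. Its groups did not overlap (log2 -1.02, edgeR adjusted p = 0.117). SRC, a kinase bound to the tail of beta3, was at 45.5, 48.2 and 13.7 CPM with ERG and 5.11, 3.12 and 2.54 CPM with vector (log2 3.31, SE 0.52, edgeR adjusted p = 0.0265, but 0.0888 by limma-voom). PIK3CG, the phosphoinositide 3-kinase activated by G proteins, rose 2.60-fold and ARRB2, the beta-arrestin 2 that binds activated receptors, 1.82-fold. Of 17 transcription factors of megakaryocytes 15 were tested. By edgeR 3 rose (20%, against 1.47% of all tested genes) and 0 fell. The median log2 fold change was 0.01, with 8 positive and 7 negative. Those that rose were GATA2 (2.15-fold), FLI1 (2.08-fold) and ETV6 (1.81-fold). FLI1, which like ERG is an ETS factor, was at 129 ± 19.7 CPM with ERG and 62.3 ± 10.9 CPM with vector. The negative ones, none past the threshold, included ZFPM1 (log2 -0.40), GATA1 (-0.28), NFE2 (-0.18) and GFI1B (-0.10). Of 11 ligand genes of the receptors THBS1, which encodes thrombospondin, was the 1 tested, at 1.56 ± 0.407 CPM with ERG and 0.898 ± 0.428 CPM with vector, without passing (edgeR adjusted p = 0.45).

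**Figure D5:**
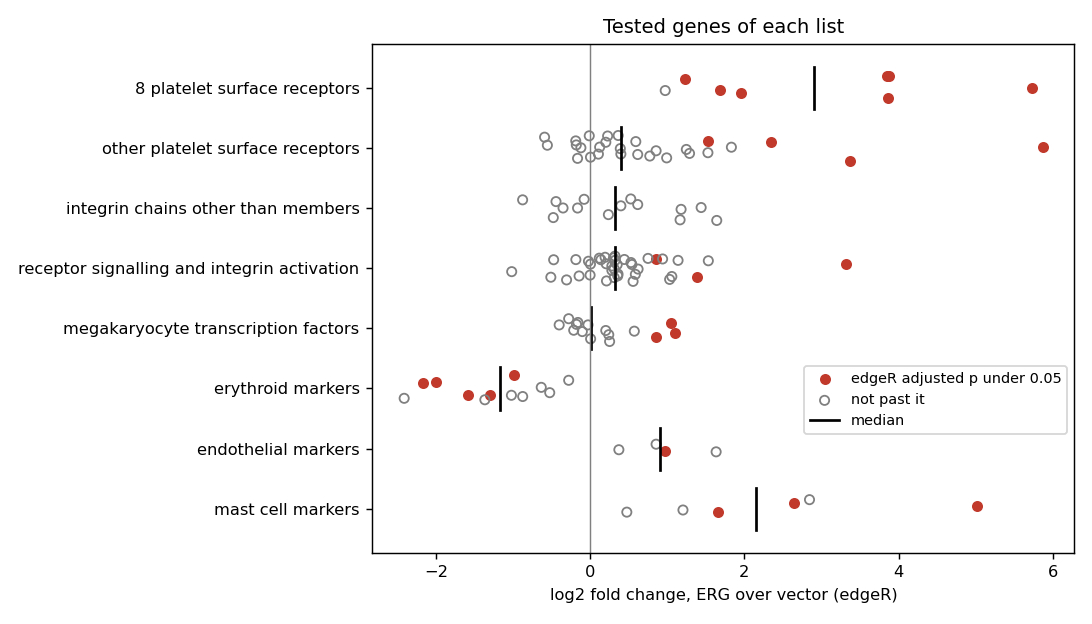
Log2 fold change of ERG over vector (x axis, edgeR) for the tested genes of 8 lists (y axis), 1 circle per gene, spread vertically so that circles can be told apart. Filled red circles passed an edgeR adjusted p of 0.05, open grey ones did not, and the black bar is the list's median. The median is 2.90 for the 8 receptors, 0.40 for the other platelet receptors and -1.16 for the erythroid markers. The 8 receptors and the other lists were all chosen with earlier results of these data known.

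Markers of some other cell types also differed between the groups, and not all in the direction of the receptors. The 12 erythroid markers summed to 3230 to 5641 CPM with ERG, against 9719 to 15796 CPM with vector, and 5 of 12 fell (41.7%, against 0.732% of all genes), among them HBG2 and HBG1 (fetal globins), EPOR (erythropoietin receptor) and KLF1 (a red cell transcription factor). Their median log2 fold change was -1.16. The 6 mast cell markers in the table summed to 1795 to 1866 CPM with ERG, against 582 to 908 CPM with vector, and MS4A2 (32.4-fold), CPA3 (6.23-fold) and HPGDS (3.16-fold) rose, 3 of the 6 tested (1.47% of all genes did). Of 10 endothelial markers, asked for because endothelium also makes PECAM1, 5 were in the table and summed to 572 to 697 CPM with ERG, against 354 to 465 CPM with vector. TEK, the angiopoietin receptor, was the 1 of 4 tested that passed as higher (1.95-fold), at an edgeR adjusted p of 0.0496. That call was lost with DESeq2 size factors (0.0551), by limma-voom (0.06) and with a minimum of 5 CPM (0.0516). TIE1, a related receptor named after its values were seen, was at 139, 138 and 85.1 CPM with ERG and 61.8, 32.0 and 22.8 CPM with vector, without overlap (3.10-fold, edgeR adjusted p = 0.0793). The defining endothelial gene CDH5 was at 1.49, 1.78 and 0.407 CPM in ERG libraries and 0.088, 0 and 0 CPM in vector libraries. The lymphoid and the monocyte and granulocyte lists had 2 tested genes each, of which 0 passed by edgeR or DESeq2 (1 and 2 genes at an unadjusted edgeR p under 0.05). The part of other cells in the receptor levels was not tested, and in bulk RNA more cells of a kind and more RNA per cell cannot be told apart.

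The calls of the 8 genes depended on single libraries. The 7 calls became 0 without ERG replicate 1 (edgeR adjusted p between 0.0716 and 0.125), ERG replicate 2 (0.0729 to 0.126), vector replicate 2 (0.0538 to 0.131) or vector replicate 3 (0.0605 to 0.104), and likewise with ERG replicates 1 and 2 summed. In each of these fits 7 of the 8 genes had an unadjusted p under 0.05 and all 8 log2 fold changes stayed positive, while the number of genes called over the whole table also dropped to between 0 and 51. Without ERG replicate 1 or 2 edgeR called 0 genes of the table (1278 and 1256 at an unadjusted p under 0.05), those of the further lists included. Without vector replicate 1, which holds its only vector read, CLEC1B also lost its call (edgeR adjusted p = 0.051), and 6 of the 8 genes passed.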

How the data were processed

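Each group had 3 libraries of F36P RNA, 6 in all. Libraries came from mRNA selected on its poly(A) tail, per the labels' protocols. The table deposited by the authors holds whole-number read counts per gene, not CPM as its name has it. The submitters' processing notes name hg38 and edgeR 3.32.1. Aligner, counter, annotation and strand are not given in the sources used here. Columns headed as controls were taken as the vector group, the remaining one, and 0 columns were unused. Every gene reached at least 1.01 CPM in 2 libraries, so low genes had been removed beforehand.

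The test took the 14203 genes that reached 1 CPM in 3 or more libraries, leaving out 618, with edgeR 4.0.16 in R 4.3.3: TMM scaling, quasi-likelihood test, two-sided, Benjamini-Hochberg adjustment over all tested genes. The procedure was run on simulated data that lacked the library sets, so that run does not cover their effect on the calls. SE is the log2 fold change divided by the root of its F statistic. DESeq2 1.42.0 and limma 3.58.1 (voom) were alternatives. Totals limit the precision of rare genes such as CLEC1B.

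The 8 genes and the 11 further lists were chosen with earlier results of these data known. From each list up to 5 called genes with the largest change are named, or the 2 most abundant, with binding partners of the 8. Some genes the rule takes are not reported here. Coordinates and lengths are from GENCODE release 29, found for all 8, and promoters from RefSeq (GRCh38.p14), found for 4. The deviations of same-numbered replicates correlated at r = 0.628, -0.285 and 0.589. The labels do not say whether they were handled together, and the numbers were not taken as pairs.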

Additional observations from a re-analysis of the deposited data

How the results depend on the processing

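The log2 fold changes of all 8 receptor genes were positive in every alternative that tested them. The count of 7 called receptors was 6 to 8 under the other normalisation, tests, filters, block and set term, and 0 with ERG replicates 1 and 2 summed (edgeR, 7 of 8 at an unadjusted p under 0.05). With single libraries left out it ran from 0 to 7, that of the other platelet receptors from 0 to 7 against 4, and that of all genes from 0 to 441 against 313. The 313 became 1006 by DESeq2, 905 with the replicate block, 1869 with the set term, 0 with ERG replicates 1 and 2 summed (edgeR, 1277 genes at an unadjusted p under 0.05) and 1001 with both, an alternative chosen after seeing the data. The count of 4 other platelet receptors became 8, 9, 11, 0 and 10 in the same order, and 2 by limma-voom. Replicates 1 and 3 of the ERG group deviated most like the vector replicate of their own number, and replicate 2 most like vector replicate 1. The labels do not say whether same-numbered replicates were handled together, so the basis of the block is unknown. The block changed no call of the 8. GP9 reversed to -0.10 (limma-voom), -0.45 (set term), -0.0433 (ERG replicates summed) and -0.56 (both), and ran from -0.15 to 0.69 with single libraries left out. ITGA4 turned to 0.0774 (set term) and 0.0668 (both), with -0.23 to 0.0398 over left-out libraries, where ITGB1 ran from -0.30 to 0.0425. The cause of these shifts was not tested. Over all alternatives the genes called higher ran from 0 to 17 (signalling, against 3), 0 to 4 (transcription factors, against 3) and 0 to 5 (mast cell, against 3). They ran from 0 to 4 for endothelial markers (against 1) and 0 to 3 for integrin chains (against 0). Genes called lower ran from 0 to 12 for erythroid markers (against 5) and 0 to 2 for signalling (against 0). They ran from 0 to 1 for integrin chains and for transcription factors (against 0 each). The set term, with sets known from earlier results of these data, moved the share of higher calls to 54.7%, against 66.8%. Without a filter 5 and with a minimum of 5 CPM 3 of the other receptors passed, and CLEC1B was not tested with that minimum. CLEC1B (85 reads) and GP5 (309 reads) are limited by depth.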
